A study of Mus musculus with 16 samples.

Results

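The 60S ribosomal subunit leaves the nucleus unfinished and is completed in the cytoplasm, where eIF6 sits on the face that joins the 40S subunit and keeps the subunits apart. SBDS and the GTPase EFL1 remove eIF6, NMD3 carries the subunit out of the nucleus, the GTPase LSG1 removes NMD3, and RACK1 is a 40S protein that binds both protein kinase C and eIF6. In hepatocytes eIF6 is known as a factor through which insulin raises translation. The probes described here are those whose gene name on the array was Eif6, Sbds, Eftud1 (now Efl1), Gnb2l1 (now Rack1), Nmd3 or Lsg1, genes taken for their part in eIF6 binding, eIF6 release or 60S export. They were 8 of 39429 probes and 6 of 30214 gene names. Eif6 had 3 probes and each of the 5 partners had 1.

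The cells were AML12, a non-tumourigenic mouse hepatocyte line, infected with a vector in which doxycycline switches on an shRNA, directed against eIF6 or, in the control cells, of scramble sequence. All groups received doxycycline and then insulin for 1 h, so neither uninduced nor insulin-free cells were compared. The insulin dose is 100 nM in the sample descriptions and 100 mM in the treatment text of the same labels. Sucrose gradients were split into polysomal RNA, which is bound by several ribosomes, and subpolysomal RNA, which carries few or none, and each RNA was hybridized to its own one-colour Agilent array. This gave scramble polysomal, scramble subpolysomal, eIF6 shRNA polysomal and eIF6 shRNA subpolysomal RNA, with 4 arrays each from biological replicates. There were 4 slides, each with 1 array from all 4 groups. Between 20177 and 24953 probes per array were well above background.

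Of 10 hepatocyte markers on the array, 7 were well above background on all 16 arrays, while Alb (albumin) was so on 7 arrays, Apoa1 on 2 and Fgb on none. Markers of mesenchymal cells were also present, 7 of 10 on all 16 arrays with Lum on none, and they differed between the cell populations. Of the 9 tested, 8 were lower in polysomal RNA of eIF6 shRNA cells and 7 in subpolysomal RNA, beside 10.2% and 11.9% of all probes. Their summed intensity on the linear scale was 172100 to 285900 in scramble polysomal RNA against 28990 to 45590 in eIF6 shRNA polysomal RNA, and 137500 to 146900 against 62040 to 76090 in subpolysomal RNA. The hepatocyte markers had overlapping sums on polysomes (342300 to 535300 and 386000 to 549800). Among them 1 was called higher there, beside 10.8% of all probes, namely Ttr (transthyretin, 1.15, limma adjusted p = 6.4e-07). Of 8 leukocyte and endothelial markers, 4 (Cd68, Cd14, Pecam1 and Kdr) were well above background on all 16 arrays and Cdh5 and Stab2 on none. None of the 6 tested was called between the cell populations. In bulk RNA, fewer cells of a type and less RNA per cell cannot be told apart. The part of the mesenchymal markers in the results on Eif6 was not tested.

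The 3 Eif6 probes lie on the minus strand of mouse chromosome 2 (build mm9) and are shown because they gave different results. The downstream probe A_52_P85864 lies at chr2:155645718-155645777 and the middle probe A_55_P1989013 at chr2:155648573-155648632, 2855 bases apart by their starts, and the array design assigns both to the RefSeq mRNA of Eif6. The upstream probe A_52_P371949 lies at chr2:155650902-155650961, a further 2329 bases away, and is assigned to a separate cDNA. No exon, intron or UTR annotation of this build was used here. The sequences are written 5′ to 3′ as in the mRNA, the middle probe whole, the downstream probe from base 1 to 30 and the upstream probe from base 31 to 60. The capitals mark AATAAA, the letters of the usual polyadenylation signal.
Eif6 A_55_P1989013: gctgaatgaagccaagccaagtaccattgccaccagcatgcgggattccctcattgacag
Eif6 A_52_P85864: tgagctagtctgtaccagatgctggcagtg
Eif6 A_52_P371949: atctctgatAATAAAacatcctggtctttt
The upstream probe had a GC content of 31.7%, against 53.3% for the middle and 55% for the downstream probe. AATAAA was found in 12.6% of all probes on the array and its reverse complement TTTATT in 4.03%, so that its presence in the upstream probe, and in 2 of the 8 member probes, is a description only.

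All 8 probes were well above background on all 16 arrays and none was flagged as saturated. The values below are log2 intensities after quantile normalization, a scale on which different probes cannot be set against each other. Polysomal Eif6 signal of the downstream probe was 15.82, 15.73, 15.80 and 16.04 on the scramble arrays and 14.52, 14.63, 14.33 and 14.38 on the eIF6 shRNA arrays. Every eIF6 shRNA array lay below every scramble array. The log2 change was -1.38 (SE 0.106), a 2.61-fold lower signal, with an adjusted p of 2.12e-07 in limma with Benjamini-Hochberg adjustment over 25215 probes. The middle probe read 15.29, 15.25, 15.26 and 15.49 in scramble and 13.92 to 14.30 in eIF6 shRNA cells, again without overlap. Its change was -1.26 (SE 0.109, limma adjusted p = 6.86e-07). Within slides the fall was -1.44 to -1.28 for the downstream and -1.33 to -1.19 for the middle probe, in 4 of 4 slides each.

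The upstream probe moved less. It was also far weaker, with a polysomal intensity before normalization of 201.1 to 417.4 against 24510 to 129000 for the other 2 probes. Whether this weak signal limited its change was not tested. The scramble polysomal values of the upstream probe were 7.76, 7.83, 7.81 and 7.29 and its eIF6 shRNA values 7.22, 7.06, 7.31 and 7.03. The lowest scramble array thus fell among the eIF6 shRNA arrays. The change was -0.52 (SE 0.115, limma adjusted p = 0.00399), and the exact permutation test gave a two-sided p of 0.0571, where 4 arrays against 4 can reach 0.0286. Without replicate 2 the change was -0.44 and did not pass (limma adjusted p = 0.0778). Of the 8 member probes, the 3 of Eif6 were called lower on polysomes, beside 10.2% of all probes, and none was called higher, beside 10.8%. Scaled to spike-in control probes, which moved the median of all probes by -0.48, the 3 Eif6 probes kept their direction (-1.52, -1.56 and -1.03) but none passed the test (adjusted p = 0.0625, 0.0503 and 0.43).

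**Figure D1:**
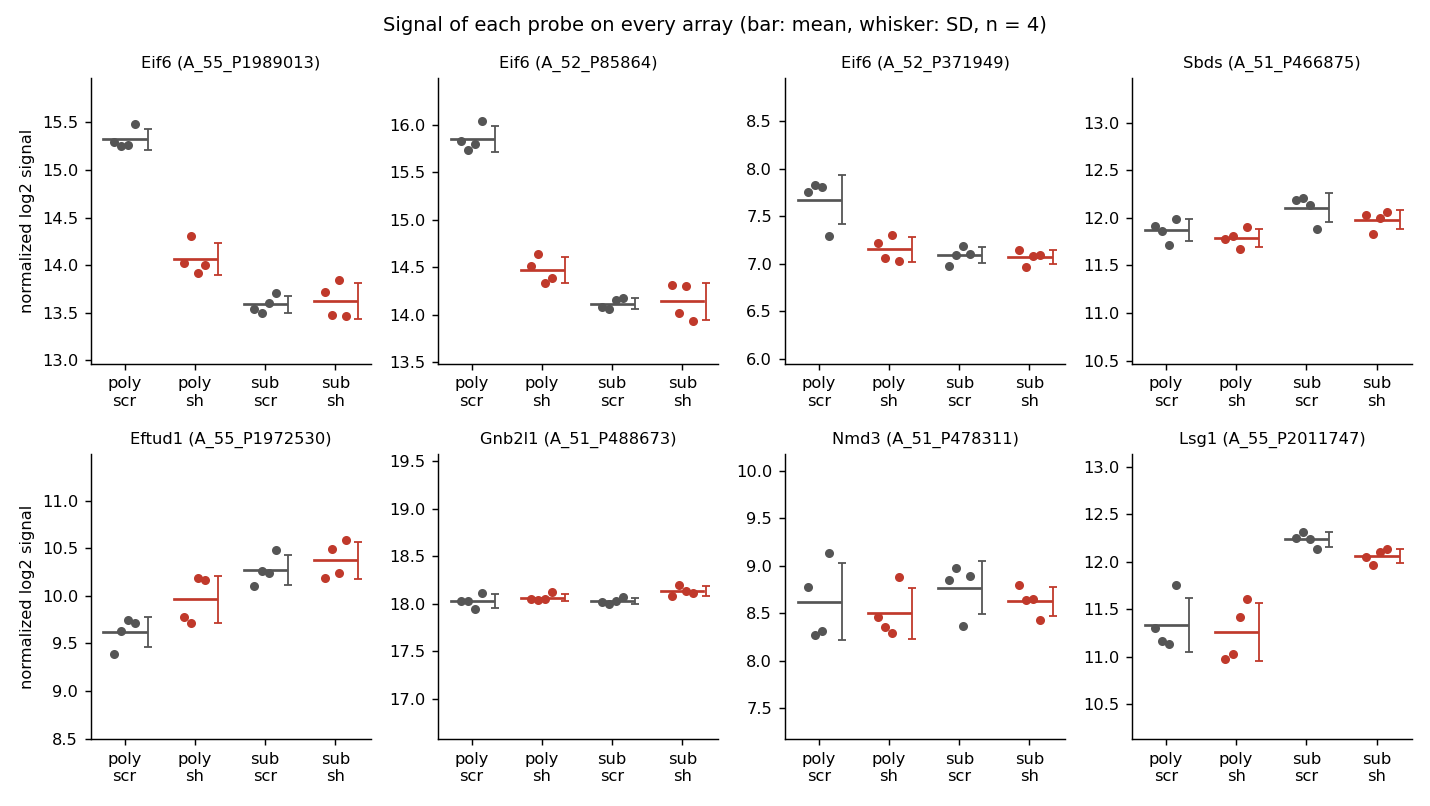
Quantile normalized log2 signal of the 8 probes on every array (points, in replicate order), with the mean (bar) and SD (whisker) of each group, for polysomal (poly) and subpolysomal (sub) RNA of scramble (scr, grey) and eIF6 shRNA (sh, red) cells. Each panel spans the same number of log2 units but has its own level. The middle and downstream Eif6 probes drop from 15.32 to 14.06 and from 15.85 to 14.47 on polysomes and lie at 13.59 and 13.63, and 14.12 and 14.14, in subpolysomal RNA.

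In subpolysomal RNA no lower signal of Eif6 was found. The downstream probe read 14.08, 14.06, 14.16 and 14.17 in scramble and 14.32, 14.02, 14.30 and 13.93 in eIF6 shRNA cells. The eIF6 shRNA values lay on both sides of the scramble values. The change was 0.02 with a 95% interval of -0.204 to 0.251, which does not reach the fall seen on polysomes. The middle probe changed by 0.04 (interval -0.193 to 0.272) and the upstream probe by -0.02 (interval -0.262 to 0.228). None of the 8 member probes was called in either direction in subpolysomal RNA, whereas 11.9% of all probes were called lower and 11.4% higher. At an unadjusted p under 0.05 limma also found 0, and the methods' t-test found 1 lower and 1 higher before adjustment and 0 after it. That test, which the methods name for single measurements and not for these arrays, was run here on each probe, two-sided and unpaired. The direction of the small subpolysomal differences of Eif6 was not stable and became negative for the downstream and middle probes under spike-in scaling (-0.20 and -0.19).

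The difference between the fractions therefore changed for Eif6. The difference of interest is polysomal minus subpolysomal log2 signal, and its change between cell populations was tested as an interaction. For the downstream probe it was 1.75, 1.67, 1.64 and 1.87 in scramble cells, taken by replicate number, and 0.20, 0.62, 0.03 and 0.46 in eIF6 shRNA cells. No value of one population reached the other. The interaction was -1.41 (SE 0.150, limma adjusted p = 2.32e-04), at percentile 0.988 of all probes. The middle probe gave 1.75, 1.75, 1.66 and 1.78 against 0.31, 0.83, 0.07 and 0.54 and an interaction of -1.30 (SE 0.154, limma adjusted p = 4.55e-04). The upstream probe gave -0.50 (SE 0.162) and did not pass (limma adjusted p = 0.182). So 2 of 8 member probes were called lower, beside 0.928% of all probes, and 0 higher, beside 0.329%. The 0 higher was also found at an unadjusted p under 0.05 and by the methods' t-test, which after adjustment kept 1 of the 2 lower calls.

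**Figure D2:**
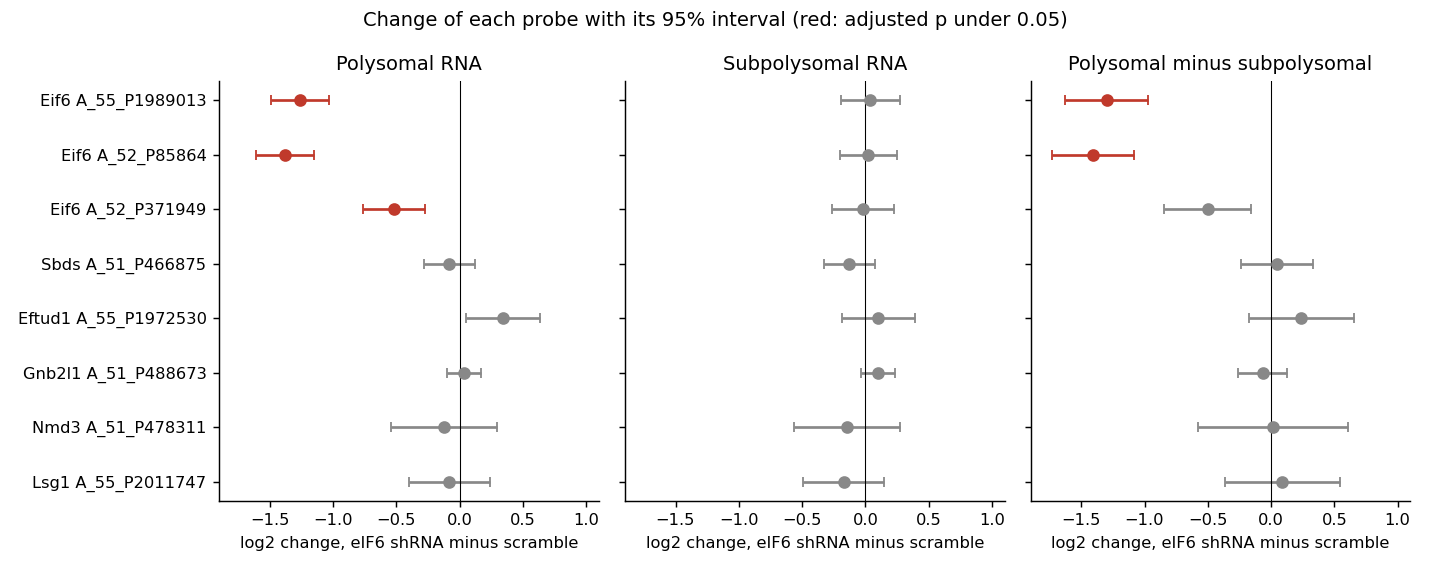
Log2 change of each probe, eIF6 shRNA minus scramble, in polysomal RNA, in subpolysomal RNA and in the difference between the fractions, with 95% intervals from limma on 4 arrays per group. Red marks adjusted p under 0.05. The 3 Eif6 probes are red on polysomes (-1.26, -1.38 and -0.52), no probe is red in subpolysomal RNA, and the middle and downstream Eif6 probes are red in the difference.

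Whether the Eif6 probes differed from each other was examined on the log2 difference of 2 probes on the same array, taken from the intensities before quantile normalization. No scaling by 1 factor per array can alter this difference, but quantile normalization can. The downstream minus the middle probe differed between populations by 0.04 on polysomes (exact p = 0.371), and by -0.12 after quantile normalization. The downstream minus the upstream probe ranged from 7.78 to 8.35 in scramble and from 7.20 to 7.76 in eIF6 shRNA polysomal RNA, without overlap. That is a difference of -0.49 (exact permutation p = 0.0286, adjusted over 9 such tests 0.0857), and of -0.86 after quantile normalization. The middle minus the upstream probe differed by -0.53 (exact p = 0.0571, adjusted 0.129), and by -0.74 after quantile normalization. In the difference between fractions, the downstream and the middle probe each differed from the upstream probe without overlap, by -0.64 and -0.69 (exact permutation p = 0.0286, adjusted 0.0857, for each). Since 0.0286 is the lowest p that 4 arrays against 4 allow, a single pair could not pass after adjustment over 9 tests. The part of the weak signal of the upstream probe in these differences was not tested.

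The 5 partners were not called in polysomal RNA, in subpolysomal RNA or in the difference between fractions. At an unadjusted p under 0.05 limma found 1 of them, Eftud1 on polysomes. Sbds, which with Efl1 releases eIF6, ranged from 11.72 to 11.99 on scramble and from 11.68 to 11.90 on eIF6 shRNA polysomal arrays, ranges that overlap, with 2 of the 4 scramble arrays above every eIF6 shRNA array. Its polysomal change was -0.08 with a 95% interval of -0.282 to 0.119. Its subpolysomal change was -0.13 (interval -0.326 to 0.0746).

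Eftud1, the gene of the GTPase partner of SBDS, read 9.39, 9.63, 9.75 and 9.71 on scramble polysomal arrays and 9.78, 9.72, 10.19 and 10.17 on eIF6 shRNA polysomal arrays. All but 1 of the eIF6 shRNA values lay above the scramble range. The polysomal change was 0.34 (SE 0.136, interval 0.0518 to 0.635), the same sign in 4 of 4 slides, but it did not pass over all probes (limma adjusted p = 0.0947, exact permutation p = 0.0571). With spike-in scaling the sign turned (-0.12). With the replicate number as a block this probe was called higher, which made 1 of 8 member probes called higher on polysomes, beside 2604 of all 25215.

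Gnb2l1, the gene of RACK1, had a probe whose signal ranked 77 to 135 among the kept probes of its array. The probe lies at chr11:48619503-48619562 (mm9, plus strand) and bases 1 to 45 are printed, because this is the member whose place on the gradient depended most on the scaling. The capitals mark TAA, the letters of a stop codon, in a reading frame that the files do not annotate.
Gnb2l1 A_51_P488673: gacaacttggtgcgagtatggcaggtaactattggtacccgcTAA
Its quantile normalized values were 18.03, 18.03, 17.95 and 18.12 on scramble polysomal arrays and 18.04 to 18.12 on eIF6 shRNA polysomal arrays. These values overlap, with a change of 0.04 (interval -0.102 to 0.172). Subpolysomal values were 18.02, 18.00, 18.03 and 18.08 in scramble and 18.08, 18.20, 18.13 and 18.11 in eIF6 shRNA cells. These did not overlap (exact permutation p = 0.0286, the lowest possible), but the change of 0.10 (SE 0.0642) did not pass over all probes (limma adjusted p = 0.292). Scaled to the 75th percentile of each array it was 0.38 and passed (limma adjusted p = 0.0245). Before normalization the subpolysomal intensities in eIF6 shRNA cells were nearly equal, at 281200 to 282500 (SD 600). In the other groups the SD was 13500 to 45600. Whether Gnb2l1 signal neared an upper limit of the measurement was not tested, and such a limit would affect all its comparisons.

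Nmd3, the export adaptor, had the widest spread of the members on scramble polysomal arrays, 8.27 to 9.13, which contained the range of the eIF6 shRNA arrays, 8.29 to 8.88. Its polysomal change was -0.12, and the interval of -0.543 to 0.295 leaves room for a moderate change in either direction. Lsg1, whose product releases NMD3, ranged from 11.13 to 11.75 in scramble and from 10.97 to 11.61 in eIF6 shRNA polysomal RNA, which overlap. In subpolysomal RNA it read 12.25, 12.31, 12.24 and 12.13 in scramble and 12.05, 11.97, 12.11 and 12.13 in eIF6 shRNA cells. The populations met at their edges without crossing. This change of -0.17 (SE 0.150) gave an exact permutation p of 0.0286 but a limma adjusted p of 0.458, so the 2 tests differ on it.

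Within scramble cells the members lay at different places on the gradient. The order by polysomal minus subpolysomal signal was the middle and downstream Eif6 probes (1.74 and 1.73), the upstream Eif6 probe (0.58), Gnb2l1 (0.00), Nmd3 (-0.15), Sbds (-0.24), Eftud1 (-0.65) and Lsg1 (-0.90). The middle and downstream Eif6 probes did not differ beyond their spread, nor did neighbours from Gnb2l1 to Sbds or Eftud1 and Lsg1, while the other steps showed no overlap over the 4 replicate numbers. The 2 upper Eif6 probes stood at the 97.9th and 97.8th percentile of all probes, whose median was 0.07. Of the 8 member probes, 3 were called higher on polysomes, all of Eif6, beside 32.8% of all probes. Another 3 were called lower, beside 27.7%, namely Lsg1 (limma adjusted p = 1.13e-04), Eftud1 (7.8e-04) and Sbds (0.041). The Sbds ranges overlapped (exact permutation p = 0.0857).

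In eIF6 shRNA cells the order was the same, and every pair of neighbours overlapped. The middle and downstream Eif6 probes fell to 0.44 and 0.33, the 67.6th and 62.5th percentile, and were the 2 of 8 called higher, beside 33.6% of all probes. Lsg1 at -0.81 and Eftud1 at -0.41 were the 2 called lower, beside 27.3%. Between the populations the place of Lsg1 differed by 0.09, with an interval of -0.365 to 0.543. Without replicate 2 the counts in eIF6 shRNA cells were 0 higher and 1 lower, beside 7128 and 5795 of all 25226 probes.

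**Figure D3:**
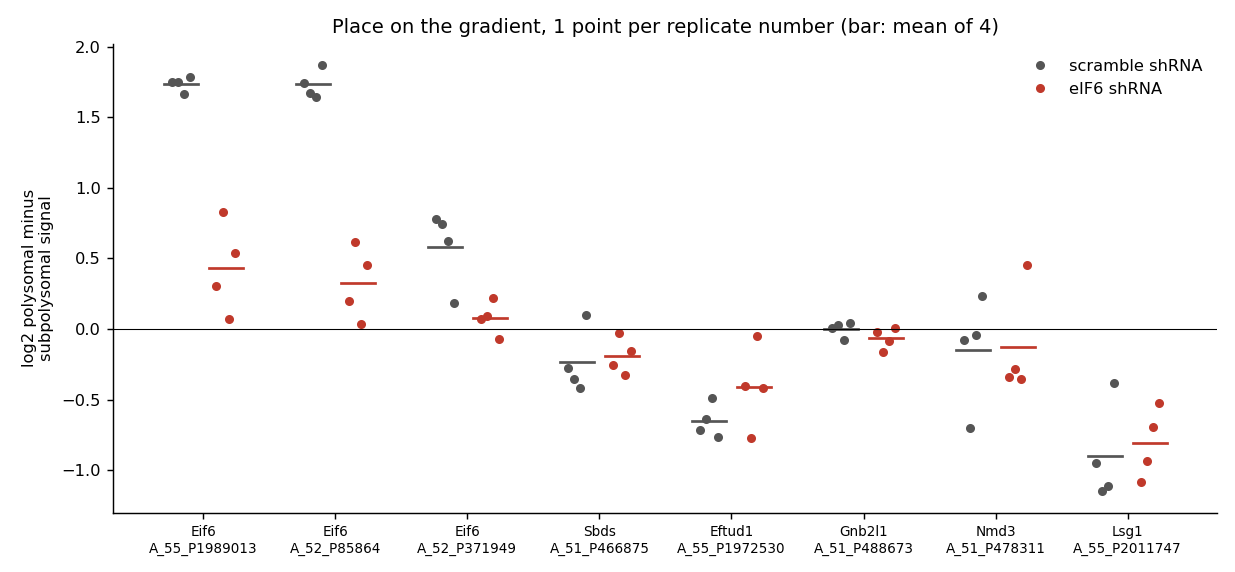
Polysomal minus subpolysomal log2 signal of the 8 probes, 1 point per replicate number, in scramble (grey) and eIF6 shRNA (red) cells, with the mean of 4 as a bar. The middle and downstream Eif6 probes fall from 1.74 and 1.73 to 0.44 and 0.33, while the points of the 5 partners overlap between populations.

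These places depended on the scaling. Scaling by 1 factor per array moved the median of all probes in scramble cells from 0.07 to -0.15 (75th percentile) or 1.57 (spike-in probes), so the values that follow are relative to that median. The middle and downstream Eif6 probes stood at 1.67 and 1.67 after quantile normalization and at 1.90 and 1.72 with 1 factor per array. Lsg1 and Eftud1 stayed below the median (-0.96 and -0.72 against -0.54 and -0.44). Sbds crossed it, from -0.30 to 0.13. Gnb2l1 went from -0.07 to -1.22, from the 46.8th to the 11.5th percentile, and was then the lowest of the 8. Before normalization its mean intensity was 296000 ± 45600 in polysomal and 244400 ± 21200 in subpolysomal RNA of scramble cells (SD, n = 4). Quantile normalization gives probes of like rank the same value, and Gnb2l1 ranked 93 to 135 on polysomal and 102 to 122 on subpolysomal scramble arrays.

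**Figure D4:**
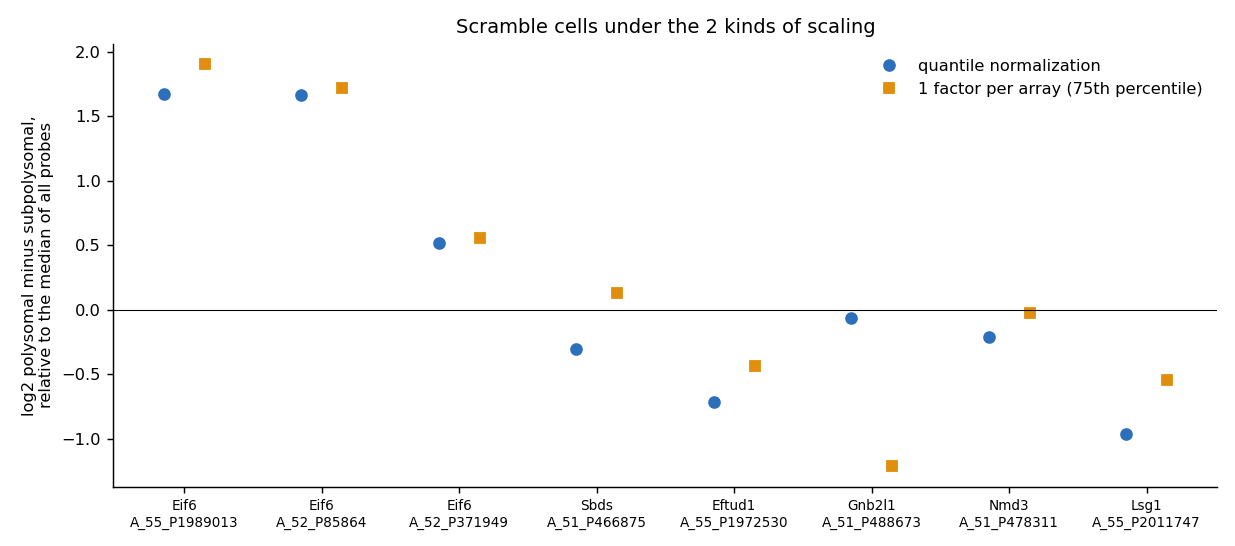
Polysomal minus subpolysomal log2 signal in scramble cells relative to the median of all probes, after quantile normalization (blue circles) and after scaling each array by 1 factor, its 75th percentile (orange squares), as means of 4 arrays per group. Spike-in scaling also uses 1 factor per array and gives the same points. Gnb2l1 moves from -0.07 to -1.22 and the other probes by less.

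Probes of other genes of the pathway were counted from 4 lists. For 60S export (the Ran system, the exportin Xpo1 and nuclear pore proteins), 1 of 15 probes was called lower on polysomes and 0 higher, beside 10.2% and 10.8% of all probes, with a median of -0.25 beside 0.02 over all probes. The one called was Nxt1, an export cofactor (-0.30, limma adjusted p = 0.0326). The count lower was 0 without replicate 1, 2 or 3 and 5 without replicate 4. Over all probes the counts moved too. Without replicate 1, 2, 3 and 4, in this order, 1761, 1877, 1751 and 2955 were lower and 1565, 1652, 1656 and 3354 higher, of 25222 to 25230. For late 60S maturation, 2 of 27 probes were lower and 1 higher, beside the same 10.2% and 10.8%. Without replicate 1, 2 or 3 these counts were 0 and 0, and without replicate 4 they were 4 and 1, beside the same counts over all probes. Lower were Mrto4, whose product holds the place of a stalk protein (-0.29), and Tma16 (-0.23), each by 1 of its 2 probes. Zfp622, a cytoplasmic 60S maturation factor, was higher (0.47, limma adjusted p = 0.0335), with a turned sign under spike-in scaling (-0.03).

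For 60S proteins at the sites of eIF6, SBDS and NMD3, 0 of 29 probes were lower on polysomes, also at an unadjusted p under 0.05, and 1 was higher, beside 10.2% and 10.8% of all probes. This was 1 of the 2 probes of Rpl3 (0.28, limma adjusted p = 0.0184), which became -0.25 under spike-in scaling. The count higher was 0 without replicate 1 or 3, 1 without replicate 2 and 2 without replicate 4. Over all probes it was 1565 and 1656, 1652 and 3354 in the same order. In the difference between fractions, 1 of these 29 probes was lower, beside 0.928% of all probes. It was a probe of Rpl23, the protein to which eIF6 binds (-0.57, limma adjusted p = 0.0464), and it passed in 8 of the 17 alternatives that give an adjusted p, at -0.87 to -0.16, and not without replicate 1, 2 or 3. The 3 probes of Rpl23 ranged from -0.57 to 0.20, and the -0.16 is their mean. Over all 18 alternatives, which include the methods' t-test before adjustment, the count lower among the 29 probes ran from 0 to 7. Over all probes it ran from 20 to 1620. Among eIF6 kinases and RACK1 partners, 0 of 16 probes were lower on polysomes and 1 higher, beside 10.2% and 10.8% of all probes. It was that of Prkce, a protein kinase C (0.44, limma adjusted p = 0.0416, -0.11 under spike-in scaling), which passed in 6 of those 17 alternatives and in none that left out a replicate. Outside the 60S proteins no probe of the lists was called in the difference between fractions, where an unadjusted p under 0.05 in limma found 1 late maturation probe lower and the methods' t-test found 0 after adjustment. The counts of 0 on polysomes, higher for export and lower for the kinase list, were also 0 without adjustment and by the methods' t-test. In subpolysomal RNA, beside 11.9% of all probes called lower and 11.4% higher, the counts lower and higher were 2 and 0 for export, 4 and 1 for late maturation, 0 and 4 for the 60S proteins and 1 and 2 for kinases and RACK1 partners. The lower counts were 0 for all 4 lists without replicate 1, 2 or 3, and 5, 6, 0 and 3 in the same order without replicate 4. Over all probes 1694, 1754 and 1845 were lower without replicate 1, 2 and 3, and 4033 without replicate 4. The higher counts of the lists without 1 replicate were 0, 0 to 2, 1 to 3 and 1, beside 1471 to 3914 of all probes. Over all 18 alternatives the higher counts ran wider, at 0, 0 to 4, 0 to 16 and 0 to 4. The lower counts were then 0 to 6, 0 to 9, 0 to 1 and 0 to 3. Over all probes the alternatives gave 36 to 4610 higher and 415 to 4756 lower.

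**Figure D5:**
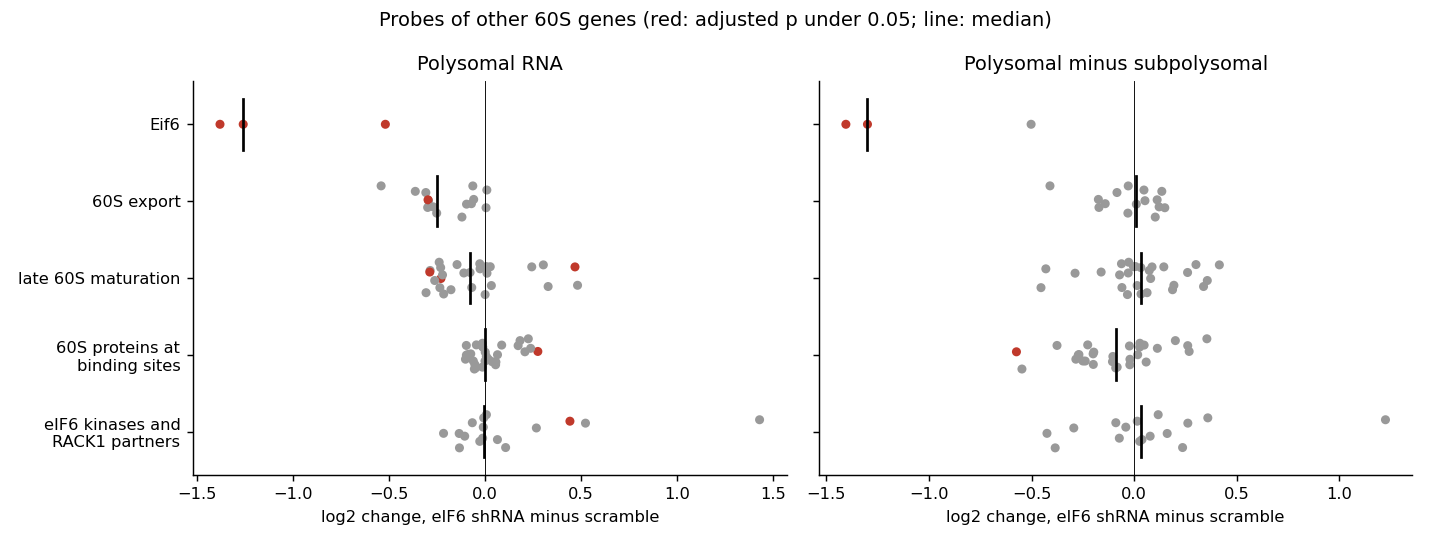
Log2 change, eIF6 shRNA minus scramble, of the 3 Eif6 probes and of each probe of the 4 lists, in polysomal RNA and in the difference between fractions, from 4 arrays per group. Points are probes, red for adjusted p under 0.05, and the line is the median. The middle and downstream Eif6 probes lie beyond every other probe on the lower side of both panels.

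The probes whose pattern was most like that of Eif6 were found by the root mean square of the log2 differences over the 16 arrays after each probe was centred, among 18746 probes. For the downstream Eif6 probe these were a probe with no gene name, A_55_P2086835 (0.149), Ndn (0.165), Pdia5 (0.178) and both listed probes of Dlk1 (0.193 and 0.205), against a median of 0.78. The middle Eif6 probe had Ndn, the same unnamed probe, Dlk1 and Pdia5 nearest and then Pir (0.216). Necdin (Ndn) and DLK1 are known as regulators of growth and differentiation, and PDIA5 is a disulphide isomerase of the endoplasmic reticulum. Polysomal changes of the named probes in both rankings ran from -1.58 to -1.11. Their subpolysomal changes ran from -0.38 to -0.15. Since these probes were picked for likeness to Eif6 on the same arrays, such changes follow from the choice and are a description only.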

How the data were processed

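Each RNA was hybridized to a one-colour Agilent mouse array, which the paper's methods name as an 8x60K design. The authors deposited the scanner output, with a background-corrected intensity per spot that is not normalized between arrays (44397 spots per array). That spot count is below the one in the name 8x60K, and which array design was used was not tested. Scanning at 5 micrometres and Feature Extraction 10.7.3.1 stand in the file headers, whereas the submitters' processing notes name version 10.7.7.1. They also deposited a log2 table, quantile normalized, whose columns correlated at 0.9947 to 0.9997 with the scanner values.

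Controls and outlier spots were left out (82 probe values missing), repeated spots were averaged, and probes above background on 2 or more arrays of any group were kept (25260, of which 25215 had a value on every array and were tested). Log2 intensities were quantile normalized over the 16 arrays and fitted probe by probe with limma 3.58.1 (in R 4.3.3, with data.table version 1.17.8) with 4 group means, Benjamini-Hochberg adjustment over all probes and a threshold of 0.05. Exact permutation tests of 4 against 4 values are two-sided over 70 arrangements. Polysomal minus subpolysomal values of single replicates pair arrays by label number only. The procedure was tested on simulated data. The members and lists were chosen with earlier results of these data known. Named beside the members are, per list, up to 2 probes called lower and 2 called higher with the largest change, in polysomal RNA and in the difference between fractions. Gene names and coordinates are those of the array files (mm9), and 7 of 8 member probes matched a RefSeq gene. The number of arrays limits the precision. Alternatives were 75th percentile or spike-in scaling (7 probes), normexp (offset 50), other filters, normalization before the filter or per fraction, gene means, the authors' table, slide or replicate blocks, the methods' t-test and each replicate number left out. Plots used Python 3.11.15 and matplotlib 3.10.9.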

Additional observations from a re-analysis of the deposited data

Results flagged for a closer look

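The polysomal scramble values of the upstream Eif6 probe A_52_P371949 (7.76, 7.83, 7.81 and 7.29) hold 1 array that stands apart, with a gap to the nearest of the others of 0.861 of the whole range. Of 32 groups of 4 arrays examined it was the only one past the limit, and chance alone passes about 1 in 20 groups. Without replicate number 4, to which that array belongs, the polysomal change of the probe was -0.61 (limma adjusted p = 5.83e-04).

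The polysomal minus subpolysomal difference of Eif6 differed between scramble and eIF6 shRNA cells by the interaction test, by -1.41 for the downstream probe A_52_P85864 and by -1.30 for the middle probe A_55_P1989013. The mesenchymal markers moved with the same comparison, 3 of 9 lower in the interaction beside 0.928% of all probes, with a median of -1.25. Their part in the result was not tested.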

How the results depend on the processing

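The 3 calls of Eif6 on polysomes kept their direction under all 18 alternatives, at -1.52 to -1.04 (downstream), -1.56 to -1.05 (middle) and -1.05 to -0.32 (upstream). The -1.05 in both ranges is the gene mean, in which the 3 Eif6 probes were merged. Counts of member probes moved as follows. Under spike-in scaling, 0 probes were called lower on polysomes, beside 1223 of all 25215. In the difference between fractions 0 were called, beside 20 lower and 3 higher. By fraction 0 were lower and 6 higher in both populations. Over all probes, 498 were lower and 17405 higher by fraction in scramble, and 588 and 15000 in eIF6 shRNA cells. By gene means, 1 gene was called lower on polysomes, 1 lower in the difference, and 1 higher by fraction in each population, since the Eif6 probes were merged. With the replicate number as a block, 1 was higher on polysomes, beside 2604 of all 25215. With 75th percentile scaling, Gnb2l1 was called lower by fraction in scramble (-1.36, limma adjusted p = 9.49e-08) and eIF6 shRNA cells (-1.61, limma adjusted p = 2.01e-08). Over all 25215 probes, 9007 and 9415 were lower. Sbds was then not called in scramble cells (limma adjusted p = 0.892). In subpolysomal RNA 1 was higher under that scaling, beside 2954 of all 25215. The methods' t-test gave 1 lower and 1 higher there before adjustment and, after it, 1 lower in the difference and 1 lower and 1 higher by fraction in eIF6 shRNA cells. Leaving out 1 replicate number gave 2 to 3 lower calls on polysomes, 1 to 3 lower and 0 to 2 higher by fraction in eIF6 shRNA cells, the lowest without replicate 2, and 2 to 3 lower in scramble cells. Over all probes these settings gave 1751 to 2955 lower on polysomes. By fraction they gave 5795 to 7218 lower and 7128 to 8766 higher in eIF6 shRNA cells, and 5932 to 7263 lower in scramble cells. The cause was not tested.

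The following signs turned. Under spike-in scaling, polysomal changes became -0.12 (Eftud1), -0.35 (Gnb2l1), -0.028 (Zfp622), -0.25 (Rpl3) and -0.11 (Prkce), and subpolysomal ones -0.20 (downstream Eif6), -0.19 (middle Eif6) and -0.20 (Eftud1). The interaction became -0.16 (Sbds), -0.17 (Nmd3) and -0.13 (Lsg1). Polysomal minus subpolysomal signal became 1.70 (Sbds), 1.13 (Eftud1), 1.54 (Nmd3) and 1.03 (Lsg1) in scramble and 1.55, 1.20, 1.37 and 0.90 in eIF6 shRNA cells. Under 75th percentile scaling it became -1.36 (Gnb2l1) in scramble and -0.11 (upstream Eif6) and 0.0077 (Sbds) in eIF6 shRNA cells. Normexp gave -0.0032 (Gnb2l1, scramble) and -0.0016 (Nmd3, interaction), and gene means 0.015 (upstream Eif6, subpolysomal). Leave-one-out ranges that crossed 0 were -0.20 to 0.0024 (Lsg1, polysomal), -0.076 to 0.018, -0.049 to 0.11 and -0.030 to 0.13 (upstream, downstream and middle Eif6, subpolysomal), -0.049 to 0.15 (Sbds), -0.12 to 0.13 (Nmd3) and -0.021 to 0.17 (Lsg1) in the interaction, and -0.014 to 0.027 (Gnb2l1) and -0.27 to 0.038 (Nmd3) in scramble cells.

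Between arrays of the same replicate number the correlations of deviations were -0.25 to 0.43, which does not settle whether the numbers pair the arrays. With the replicate number as a block the polysomal Eif6 calls held, while Eftud1 became called (0.34, limma adjusted p = 0.0362). Between arrays of the same slide the correlations were -0.08 to 0.29, and the main fit had no slide term. Normalizing each fraction separately gave no value for comparisons between fractions.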
